A study of Mus musculus with 6 samples.

Results

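Transcription factors that define B cells were followed through the germinal center (GC) reaction and into plasma-lineage cells. The 9 genes were Bcl6, Pax5, Bach2, Ebf1, Spib, Irf8, Mef2b, Foxo1 and Pou2af1. They were chosen by symbol, and all 9 were found once among the 31053 features of every library. Single-cell RNA-seq (10x Genomics 3' chemistry, which counts unique molecular identifiers, UMIs, at the 3' ends of transcripts) had been run on 6 libraries of spleen cells sorted from mice immunized with sheep red blood cells. Of these, 3 libraries came from Smc3 wt/wt controls, labelled "Cgamma1-Cre WT Control", and 3 from heterozygous Smc3 wt/- mice, labelled "Cgamma1-Cre Smc3 +/-". Both genotypes carry Cgamma1-Cre, which is expressed from the Ighg1 locus and therefore acts only in B cells that have activated that locus, so naive B cells and other cell types keep both copies of Smc3. The deletion removes exon 4 of Smc3, and a 3' count cannot show it. The methods list as many Smc3 wt/- mice as there are Smc3 wt/- libraries, and more Smc3 wt/wt mice, and additional wild-type data of the study were not analysed here. No label ties a library to a mouse, so p-values measure only the spread between these libraries, which may in part be technical. Ages were not given in the sources used here.

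The 6 libraries held 22939 barcodes and 156055938 UMIs, between 5223325 and 35354257 UMIs per library, and 20847 cells were kept. All cells were labelled GC B cells, but 531 cells had a T cell-like profile, 677 were myeloid-like and 2068 were of the plasma lineage. The library labelled Smc3 wt/- replicate 2 stood apart: its immunoglobulin transcripts made up 51.9% of all UMIs, where the range elsewhere was 2.37% to 3.90%, and it held 1745 of the 2068 plasma-lineage cells. Its centroblast-like cells also carried less of the GC marker Rgs13 (121 against 457 to 862 UMIs for every 1000000 UMIs of all genes, CPM). Its level of Y-linked transcripts (53.7 CPM of all genes) lay between Smc3 wt/wt replicates 1 and 2 (191 and 173) and the remaining libraries (0 to 0.0304). Only control libraries had the high level, so genotype and sex are partly confounded here. Between 4 and 36 cell barcodes were shared by any pair of libraries. Smc3 itself did not pass the genotype test in any class (log2 fold change of Smc3 wt/- over Smc3 wt/wt −0.08 ± 0.18 SE in centroblast-like cells, n = 3 and 3, adjusted p = 1.0, edgeR's quasi-likelihood test).

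B cell identity is held by a network of factors with separate roles. Ebf1 and Pax5 commit progenitors to the B lineage and switch on genes of the B cell receptor pathway. Bcl6 is the master repressor of the GC B cell and, with Bach2, represses Prdm1, which encodes BLIMP1, the factor that drives plasma cell differentiation and in turn represses Bcl6 and Pax5. Mef2b activates Bcl6 in GC B cells, and Foxo1 maintains the dark zone, where centroblasts divide and mutate their immunoglobulin genes before they move to the light zone as centrocytes. Spib, an ETS family factor, and Irf8, an interferon regulatory factor, act with PU.1 in mature B cells, and Pou2af1 (OBF-1) is a coactivator that binds the octamer factors Oct-1 and Oct-2 and has roles in GC formation and in antibody-secreting cells.

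All 9 genes are protein-coding. On GRCm38 (mm10, the build of the files) they lie at chr16:23965052-23988852 (Bcl6, minus strand), chr4:44524757-44710487 (Pax5, minus), chr4:32238804-32586108 (Bach2, plus), chr11:44617317-45008091 (Ebf1, plus), chr7:44525993-44532071 (Spib, minus), chr8:120736358-120756694 (Irf8, plus), chr8:70139711-70167488 (Mef2b, plus), chr3:52268336-52353221 (Foxo1, plus) and chr9:51213708-51240080 (Pou2af1, plus). RefSeq (GRCm38.p6) gave 12 promoter windows for the 9 genes, and the 250 bases before each start were searched on both strands for 9 motifs. The BCL6 motif TTCNNNGAA was found in 4 of the 12 windows, in Bcl6, Bach2 and Irf8, against 7.02% of 32851 windows of all genes. The octamer ATGCAAAT was found in Mef2b and in 1.60% of all windows, and EBF CCCNNGGG in Spib and Foxo1 and in 11.8%. MEF2 CTANNNNTA was found in Bcl6 and Spib (19.0% of all windows), and IRF GAAANNGAA (7.13%) and BLIMP1 GAAAGTG (4.01%) in Ebf1. No window held the ETS core AGGAAGT (7.69% of all windows), FOXO TGTTTAC (3.17%) or the E-box CAGCTG (13.0%), and the Pax5 and Pou2af1 windows held none of the 9. A match is a run of letters and not a bound site. The windows with a BCL6 or octamer match, and that of Pou2af1 for contrast, are shown 5′ to 3′ on the strand of the gene, with matched letters in capitals. They lie at chr16:23988853-23989102 (Bcl6 upstream start, minus), chr16:23981284-23981533 (Bcl6 downstream start, minus), chr4:32417185-32417434 (Bach2, plus), chr8:120736108-120736357 (Irf8, plus), chr8:70152511-70152760 (Mef2b, plus) and chr9:51213440-51213689 (Pou2af1, plus).
Bcl6 upstream start: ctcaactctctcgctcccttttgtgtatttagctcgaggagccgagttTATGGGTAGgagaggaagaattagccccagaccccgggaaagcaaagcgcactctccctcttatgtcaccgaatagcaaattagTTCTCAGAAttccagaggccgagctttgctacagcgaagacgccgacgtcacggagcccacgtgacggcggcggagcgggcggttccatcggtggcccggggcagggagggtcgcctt
Bcl6 downstream start: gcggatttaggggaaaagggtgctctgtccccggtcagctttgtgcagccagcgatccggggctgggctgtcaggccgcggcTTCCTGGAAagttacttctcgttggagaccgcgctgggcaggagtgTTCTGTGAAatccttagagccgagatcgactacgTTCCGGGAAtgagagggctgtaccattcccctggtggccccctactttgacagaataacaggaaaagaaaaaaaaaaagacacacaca
Bach2: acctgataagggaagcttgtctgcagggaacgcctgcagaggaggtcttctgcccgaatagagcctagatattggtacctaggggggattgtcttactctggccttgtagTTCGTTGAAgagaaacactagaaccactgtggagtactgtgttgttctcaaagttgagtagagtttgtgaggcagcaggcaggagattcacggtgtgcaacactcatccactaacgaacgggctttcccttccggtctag
Irf8: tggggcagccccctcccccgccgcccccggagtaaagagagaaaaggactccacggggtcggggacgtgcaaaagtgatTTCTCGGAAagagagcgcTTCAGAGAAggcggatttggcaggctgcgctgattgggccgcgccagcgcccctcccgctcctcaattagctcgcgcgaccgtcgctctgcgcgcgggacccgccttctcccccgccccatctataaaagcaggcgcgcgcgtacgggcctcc
Mef2b: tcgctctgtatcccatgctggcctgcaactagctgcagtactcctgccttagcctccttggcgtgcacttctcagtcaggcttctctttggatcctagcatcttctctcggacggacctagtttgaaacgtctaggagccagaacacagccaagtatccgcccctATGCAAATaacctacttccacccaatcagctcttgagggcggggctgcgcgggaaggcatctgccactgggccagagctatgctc
Pou2af1: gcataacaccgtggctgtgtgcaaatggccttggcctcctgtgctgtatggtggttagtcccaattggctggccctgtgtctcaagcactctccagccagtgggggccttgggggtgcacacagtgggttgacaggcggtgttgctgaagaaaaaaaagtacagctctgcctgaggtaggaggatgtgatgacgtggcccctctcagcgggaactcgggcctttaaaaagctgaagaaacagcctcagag
The window of the upstream Bcl6 start carries a BCL6 match at −118 and a MEF2 match at −202 from the start. That of the downstream start carries 3 BCL6 matches, at −168, −122 and −88, the most of the 12 windows. The Bach2 match lies at −140. In the Irf8 window both matches, at −171 and −153, lie close together, and the octamer of Mef2b begins at −85. Only the EBF matches of Spib, at −65 and −64, overlap each other.

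Cells were grouped by clusters built without the 9 genes and named from marker genes: centroblast-like (CB-like, 5896 cells), S-phase GC B-like (3129), centrocyte-like (CC-like, 1416), recycling-like with Myc program genes (1587), naive or memory B-like (1850), plasmablast-like (468, PB-like) and, with 1600 cells, PC-like, which stands for plasma cells. A further 3632 B lineage cells, led by haemoglobin transcripts, were left unnamed and stand outside the orders of classes given below. Their mean levels, on the scale defined next, were above those of each named class for Bcl6 (35.3), Pax5 (159.6), Bach2 (176), Ebf1 (1314), Spib (277), Mef2b (555) and Foxo1 (91.8), and not for Irf8 (753) or Pou2af1 (407). Plasma-lineage cells are the sum of both last classes, and each library held 34 to 1745 of them. PC-like cells formed 2 clusters, and 533 of the 538 cells of the smaller one came from Smc3 wt/- replicate 2. Levels are CPM on the non-immunoglobulin scale, the UMIs of a gene for every 1000000 UMIs outside immunoglobulin genes in the sum over a library's cells of a class, because immunoglobulin transcripts fill much of a plasma cell's RNA. Levels are compared for 1 gene across classes and never between genes, since transcripts differ in how well their 3' ends are counted. Ratios between classes come from edgeR with the library as a block, on TMM-scaled sums, and carry no test, since cells of a class share their libraries and the classes were built on the same cells.

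Among the named classes, Bcl6, Bach2, Mef2b and Foxo1, the members of the GC program, each had their highest mean in CB-like cells. Bcl6 stood there at 47.4, 32.2 and 28.3 CPM in replicates 1 to 3 of the Smc3 wt/wt controls and at 35.4, 10.5 and 26.0 in replicates 1 to 3 of Smc3 wt/-. Its level was similar in S-phase GC B-like cells (28.9 ± 14.5, SD, n = 6 libraries) and was 18.2 ± 10.1 in CC-like cells, with overlapping ranges. The ranges parted between recycling-like cells (10.7 to 22.5 CPM) and those of the naive or memory B-like class (0.600 to 9.76). In plasma-lineage cells Bcl6 stood at 3.56, 3.55, 3.5, 6.03, 1.07 and 1.15 CPM in the same order of libraries, which rests on 22 UMIs in all. Every plasma-lineage value lay under every CB-like value.

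Bach2 delays plasma cell commitment. CB-like cells held 148, 208 and 189 CPM in the controls, whereas the Smc3 wt/- libraries held 153, 62.8 and 157, and CC-like cells held 78.6, 96.3, 106, 90.8, 19.9 and 81.1. Smc3 wt/- replicate 2 was the lowest library in both classes. Bach2 was already low in recycling-like cells (8.01 to 41.2 CPM), which overlapped naive or memory B-like cells (26.0 to 65.8). Plasma-lineage cells held 3.56, 3.55, 12.3, 9.04, 2.62 and 15.0 CPM.

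Mef2b had another order, in which naive or memory B-like cells came last. CB-like cells held 782, 501, 494, 694, 134 and 485 CPM and CC-like cells 654, 518, 489, 720.4, 39.9 and 528. The naive or memory B-like class held 45.5, 46.7, 38.5, 92.8, 6.0 and 45.6, the lowest mean of the B lineage classes. Plasma-lineage cells kept more, at 288, 164, 212, 371, 10.7 and 215 CPM. The library Smc3 wt/- replicate 2 was far below the other libraries in each of these classes. In CB-like cells its 134 CPM stood beside a mean of 591 ± 138 (SD, n = 5) in the others.

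Foxo1, the dark zone factor that is inhibited by PI3K signaling, differed less between classes. CB-like cells held 71.7, 84.3, 79.4, 60.7, 49.7 and 69.6 CPM, and CC-like cells 46.1, 52.0, 50.6, 31.4, 24.4 and 48.5. Plasma-lineage cells held 17.8, 28.4, 37.6, 45.2, 29.4 and 55.4, and no pair of neighbours in the order of classes had ranges that parted. T cell-like cells held 77.1 ± 16.9, a cell type that also uses Foxo1.

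The lineage commitment factors were present in every B cell state, Pax5 at a narrower range of levels than Ebf1. Pax5 stood at 124, 131, 122, 91.0, 115 and 119 CPM in CB-like cells and at 104, 133, 124, 101, 122 and 109.6 in naive or memory B-like cells, and the ranges of all B cell classes overlapped with their neighbours. In plasma-lineage cells it was at 10.7, 4.73, 11.4, 4.52, 0.596 and 12.7 CPM, in all 39 UMIs. The gap between the lowest B cell class, recycling-like (54.7 to 88.1), and the plasma-lineage cells was without overlap. Ebf1 had its highest mean of the named classes in naive or memory B-like cells, at 1392, 1131, 1023, 1181, 1003 and 1031 CPM, and stood at 808, 696, 670.0, 923, 581 and 725 in CB-like cells. Recycling-like cells (272 to 481) lay below every other B cell class without overlap. Plasma-lineage cells held 64.1, 68.6, 70.9, 91.9, 72.7 and 120.0 CPM.

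Spib and Irf8 had their highest mean of the named classes in CC-like cells. For Spib, CC-like cells held 236, 199, 222, 233, 139.6 and 205 CPM against 196, 186, 198, 226, 123 and 178 in CB-like cells. Plasma-lineage cells held 3.56, 7.10, 13.1, 7.54, 1.43 and 13.8, in all 51 UMIs. For Irf8, CC-like cells held 927, 811, 784, 764, 656 and 747 CPM against 545, 538, 547, 530.2, 480.4 and 482 in CB-like cells, so the classes did not overlap. Plasma-lineage cells held 71.2, 84.0, 145, 193, 39.2 and 148.

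Pou2af1 was lower in plasma-lineage than in CB-like cells of each library on this scale, by less than most other members. CB-like cells held 588, 579, 584, 506, 402 and 523 CPM, and plasma-lineage cells 363, 388, 391, 419, 346 and 451. CC-like cells (166 to 292 CPM) and the naive or memory B-like class (139.8 to 188) lay below both, and did not overlap with either. The plot of levels by class shows the same values.

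**Figure D1:**
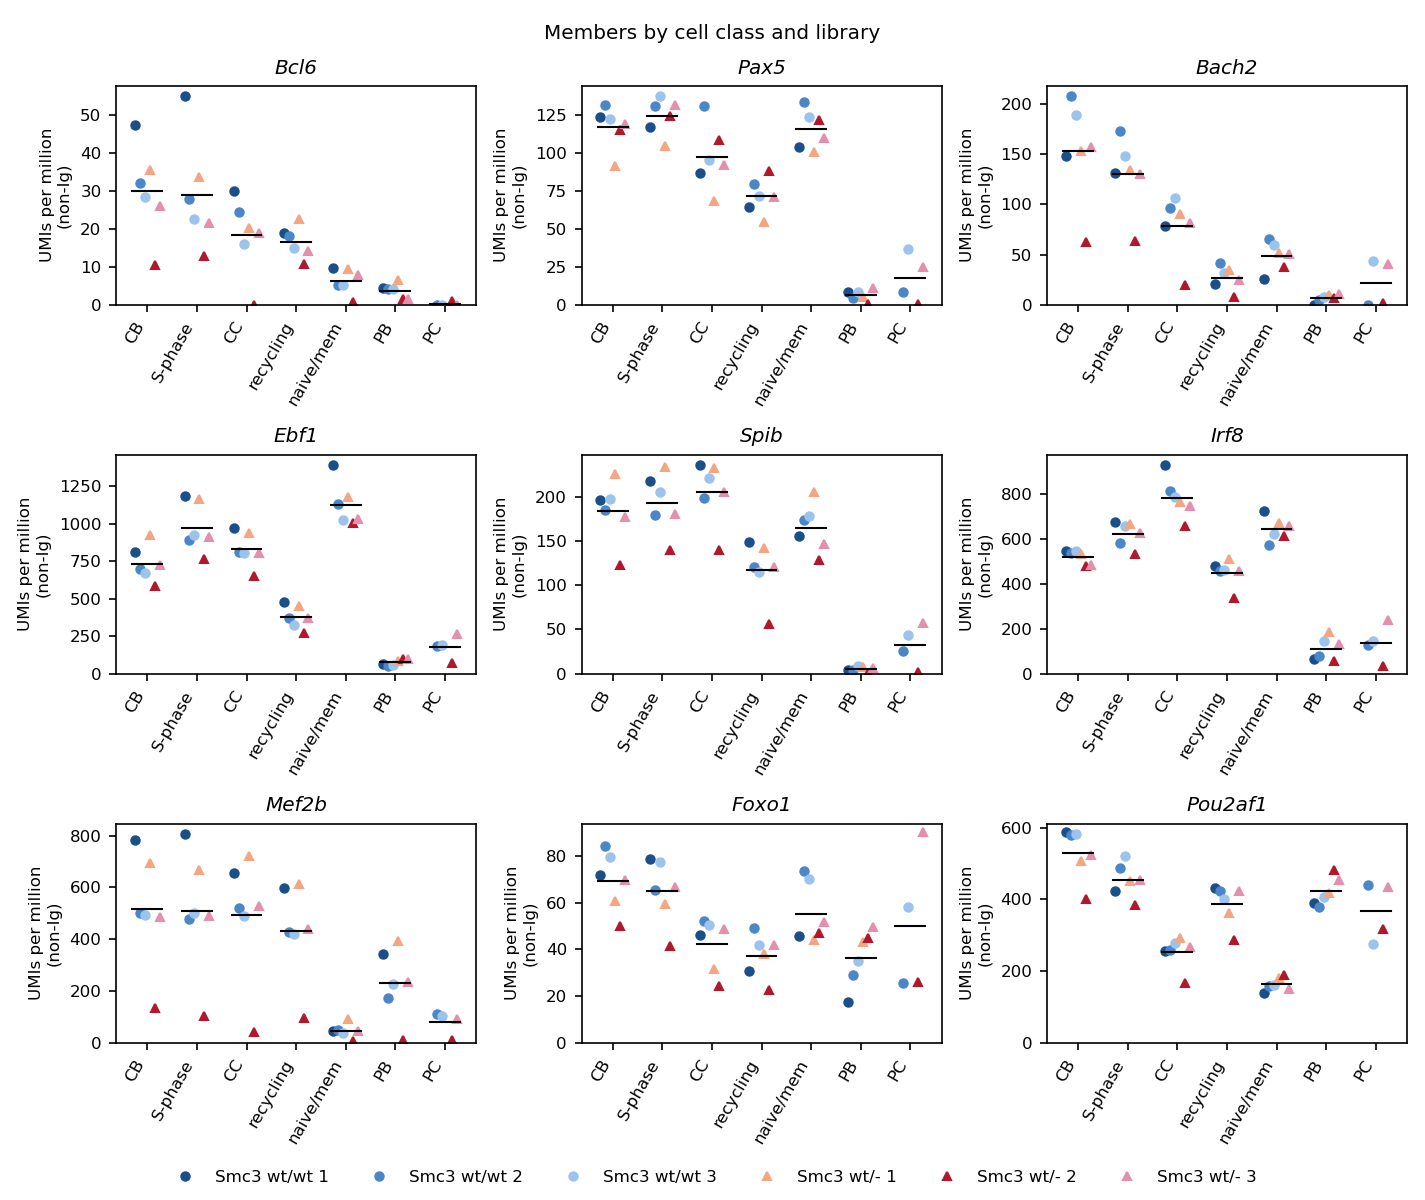
Levels of the 9 genes (CPM on the non-immunoglobulin scale, vertical axes from 0) in the B cell classes and in PB-like and PC-like cells (horizontal axis), with 1 point per library, a bar at the mean, circles for Smc3 wt/wt, triangles for Smc3 wt/- and dark red for Smc3 wt/- replicate 2. Pou2af1 lies at 379.6 to 483 CPM in PB-like sums, whereas Pax5, Spib and Bach2 lie at 10.7 or less there.

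Set side by side, 8 of the 9 genes were lower in plasma-lineage than in CB-like cells in each of the 6 libraries. Over all 7532 genes tested, 25.5% were lower and 22.6% higher in each library, and the median log2 ratio of all genes was −0.04, against −2.83 for the 9. With immunoglobulin genes left out of the sums, 8 of the 9 were again lower in each library, beside 26.9% of all genes. The log2 ratios were −4.43 ± 0.28 SE for Spib, −4.20 ± 0.42 for Pax5 and −3.95 ± 0.24 for Bach2. The SEs of these 3 overlap, and Pax5 ranged from −6.35 in Smc3 wt/- replicate 2 to −2.97 in replicate 3. The shares of plasma-lineage cells with a Spib or Pax5 UMI, given below, were not above those of T cell-like cells. No order among these 3 genes is therefore read. Bcl6 was at −2.87 ± 0.25, Ebf1 at −2.83 ± 0.16, Irf8 at −2.03 ± 0.22 and Mef2b at −1.29 ± 0.24. The Foxo1 ratio was −0.59 ± 0.21, between −1.67 in Smc3 wt/wt replicate 1 and −0.00 in Smc3 wt/- replicate 2, so its place among the 8 rests on a value next to 0. The 1 gene without a common direction on the TMM scale was Pou2af1 (−0.10 ± 0.13), lower in 4 libraries and higher in 2, with −0.38, −0.34 and −0.35 in the controls and −0.08, 0.53 and 0.01 in the Smc3 wt/- libraries.

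Several of these values depend on 1 library or on the scale. Without Smc3 wt/- replicate 2 the ratios were −3.49 for Pax5, −4.03 for Spib, −1.77 for Irf8, −1.01 for Mef2b, −0.68 for Foxo1 and −0.22 for Pou2af1, and 8 of 9 were again lower in each library. Without TMM, on the non-immunoglobulin scale alone, the median of all genes was −0.36 and all 9 genes were lower in each library, with −0.42 for Pou2af1 and −0.93 for Foxo1. On that scale 40.6% of all genes were lower and 13.4% higher in each library. The Pou2af1 ratio moved with the median gene, so the number of libraries in which it was lower depends on the scale. It was lower in 4 on the TMM scale, in 5 there with immunoglobulin genes left out, and in 6 without TMM. The reciprocal genes stood far above: Prdm1 (log2 5.93 ± 0.36), Irf4 (4.24 ± 0.38), which opposes Bcl6 and promotes plasma cell fate, and Xbp1 (4.20 ± 0.12), which expands the secretory pathway, were higher in 6 of 6 libraries. Prdm1 and Xbp1 were among the markers that named the plasma classes, so their direction was in part fixed by the naming. Irf4 was not among those markers.

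**Figure D2:**
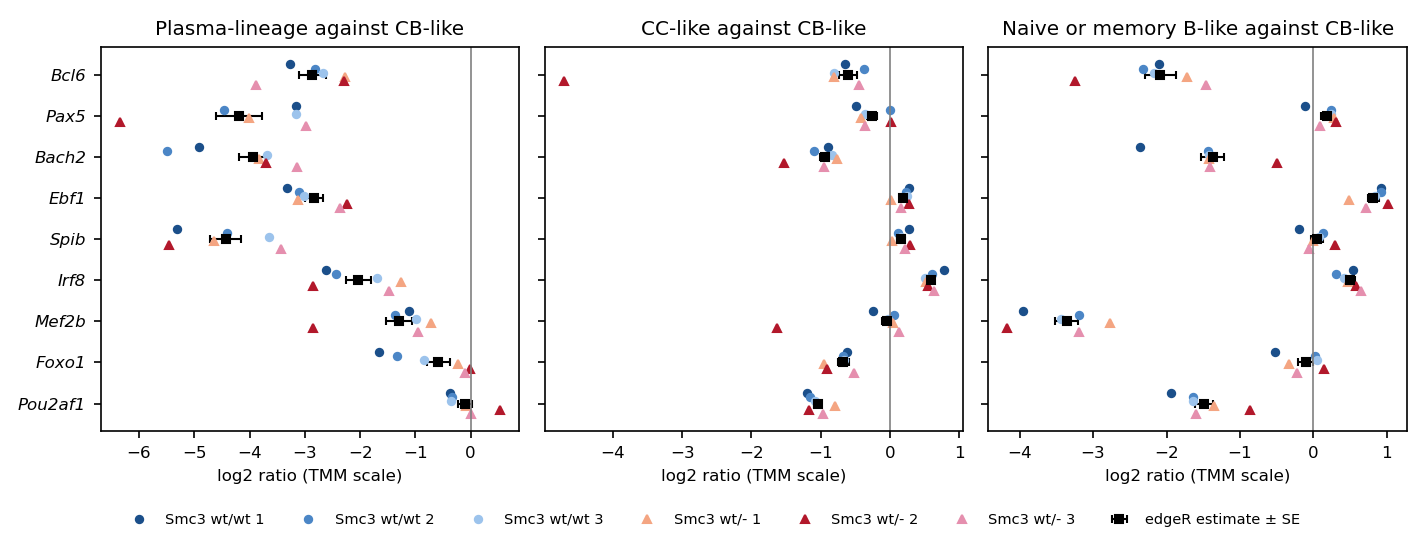
Log2 ratios of the 9 genes (horizontal axis, TMM scale) for plasma-lineage, CC-like and naive or memory B-like cells against CB-like cells, with 1 point per library, the edgeR estimate and its SE. Pou2af1 lies at −0.10 for plasma-lineage cells, to the right of the other 8 genes, and at −1.04 and −1.49 for the other classes, to their left apart from Bcl6 and Mef2b in naive or memory B-like cells.

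Light zone cells showed a different pattern. Against CB-like cells, 4 of 9 genes were lower in each library of CC-like cells and 3 were higher, where 19.0% and 18.4% of 8280 tested genes were. The lower genes were Pou2af1 (log2 −1.04 ± 0.05 SE), Bach2 (−0.94 ± 0.07), Foxo1 (−0.67 ± 0.08) and Bcl6 (−0.61 ± 0.13). Irf8 was higher (0.60 ± 0.05), as were Ebf1 (0.19 ± 0.05) and Spib (0.16 ± 0.05), though both of the latter were −0.09 when cells were clustered without integration. Pax5 (−0.25 ± 0.07) was lower in 4 of 6 libraries, and Mef2b (−0.04 ± 0.08) was split 3 and 3. Without TMM 5 of the 9 were lower in each library, beside 20.4% of all genes, and 16.9% of all genes were higher. In Smc3 wt/- replicate 2 no Bcl6 UMI was counted in 104 CC-like cells, and the Mef2b ratio was −1.63 against −0.24 to 0.13 elsewhere.

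Naive or memory B-like cells held less Mef2b, Bcl6, Pou2af1 and Bach2 and more Ebf1 and Irf8. Against CB-like cells 4 of 9 genes were lower in each library and 2 were higher, against 22.7% and 25.4% of 7690 tested genes. Mef2b was lowest (log2 −3.36 ± 0.16 SE), then Bcl6 (−2.08 ± 0.21), Pou2af1 (−1.49 ± 0.12) and Bach2 (−1.37 ± 0.16). Ebf1 (0.81 ± 0.07) and Irf8 (0.49 ± 0.07) were higher in 6 of 6 libraries. Pax5 (0.19 ± 0.08), Spib (0.04 ± 0.08) and Foxo1 (−0.11 ± 0.10) did not keep 1 sign across the libraries. Thus Pou2af1 was the only one of the 9 that was lower in both these classes by more than 1 log2 unit and near its CB-like level in plasma-lineage cells. Without TMM 5 of the 9 were lower in each library, the median of all genes was −0.14, and 31.5% of all genes were lower and 18.6% higher.

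Within the plasma lineage, 4 libraries held at least 20 cells of both stages, and 5 genes had enough counts. Ebf1 was higher in PC-like than in PB-like cells in 4 of 4 libraries (log2 1.44 ± 0.33 SE), where 20.2% of 4535 genes were. On the non-immunoglobulin scale its levels were 186, 189 and 262 CPM in PC-like and 49.5, 54.7 and 96.7 in PB-like cells of Smc3 wt/wt replicates 2 and 3 and Smc3 wt/- replicate 3, but 67.9 and 95.4 in Smc3 wt/- replicate 2, the opposite order. The 3 former libraries had only 24 to 31 PC-like cells each. Spib, which had too few counts for a ratio, was in the same libraries at 25.4, 43.6 and 57.3 CPM in PC-like and 4.13, 8.96 and 6.72 in PB-like cells, and at 1.59 and 0.682 in Smc3 wt/- replicate 2. Pax5 was at 8.45, 36.3 and 24.5 against 4.13, 7.96 and 10.7, and at 0.578 and 0.682 in Smc3 wt/- replicate 2. Spib and Pax5 thus also had higher levels in PC-like cells of the 3 small libraries, and Bach2 in 2 of them, on at most 7 UMIs each. After thinning to 2000 UMIs, 8.70%, 7.69% and 6.67% of their PC-like cells carried UMIs of 3 or more of the 9 genes, against 0.0673% in Smc3 wt/- replicate 2. The part of such cells in the Ebf1 value was not tested. Irf8 (0.58 ± 0.25), Foxo1 (0.45 ± 0.33), Pou2af1 (0.16 ± 0.18) and Mef2b (−0.32 ± 0.29) did not keep 1 sign, no member was lower in each library where 23.2% of genes were, and the median of all genes without TMM was −0.43. On that scale 39.6% of all genes were lower and 6.81% higher, and again no member was lower in each library.

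The share of a cell's UMIs taken by immunoglobulin differed between plasma-lineage cells, and Mef2b and Pou2af1 were set against it. Secretion itself was not measured. Pooled over the 5 other libraries, Mef2b was at 264, 190.5, 126 and 55.0 CPM in plasma-lineage cells with under 20%, 20 to 40%, 40 to 60% and over 60% immunoglobulin (180, 50, 30 and 63 cells). The 5 libraries differed in plasma-lineage Mef2b, as given above, and the part of each library in these values was not tested. In Smc3 wt/- replicate 2 Mef2b was at 13.8, 11.9, 4.73 and 11.5 (39, 119, 246 and 1341 cells), low throughout. Pou2af1 stood at 418, 411, 386 and 289.7 CPM in the 5 libraries and at 533, 488, 405 and 312 in Smc3 wt/- replicate 2. Both sets of cells therefore had most Pou2af1 where immunoglobulin took least. Cells with the lowest share also carried more Mki67, a proliferation gene (244 and 206 CPM under 20% against 40.3 and 11.5 over 60%), and the part of cell division in these values was not tested.

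Cells were then thinned to 2000 UMIs each, to count how many carried a UMI of each gene at equal depth. Among 5725 CB-like cells, Ebf1 was seen in 75.3% (95% exact binomial interval 74.2 to 76.4), Irf8 in 63.6%, Pou2af1 in 62.6%, Mef2b in 59.5%, Spib in 32.2%, Bach2 in 28.1%, Pax5 in 20.5%, Foxo1 in 13.9% and Bcl6 in 6.15%. Among 2055 plasma-lineage cells Pou2af1 was seen in 24.5% (22.7 to 26.4), Ebf1 in 6.86%, Irf8 in 5.01%, Mef2b in 4.09%, Foxo1 in 3.41% and each of the other 4 in at most 0.681%. Median depth before thinning was 6408 UMIs in the former and 14921 in the latter. Intervals cover counting error only, and 1738 of the 2055 plasma-lineage cells came from Smc3 wt/- replicate 2. In the 317 plasma-lineage cells of the other libraries Pou2af1 was seen in 38.5% (33.1 to 44.1), Mef2b in 22.4% (17.9 to 27.4), Irf8 in 16.1% (12.2 to 20.6), Ebf1 in 12.6% (9.17 to 16.8), Foxo1 in 7.26% and each of the other 4 in at most 3.15%. In Smc3 wt/- replicate 2 Mef2b was seen in 0.748% and Pou2af1 in 22.0%. Bcl6 was seen in 0 of 1591 PC-like cells, and without that library in 0 of 106. By the limit of 3 counts this allows a share of cells with a UMI of up to 0.189% and 2.83% (upper ends of the exact interval 0.232% and 3.42%). These limits hold for thinned cells, and without thinning 7 of 1600 PC-like cells (0.438%, 0.176 to 0.899) had a Bcl6 UMI.

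T cell-like cells served as the reference for free RNA in the droplets. T cells can use Bcl6, Bach2 and Foxo1 themselves, so for these the reference says nothing about background. The shares of Bcl6 and Bach2 below are given as values only. Of 175 T cell-like cells deep enough (median 2773 UMIs), 1.71% had a Bcl6 UMI, 1.14% a Pax5 UMI, 1.14% a Bach2 UMI and 4.0% a Spib UMI, all at or above the plasma-lineage shares. Without Smc3 wt/- replicate 2, 116 T cell-like cells gave 0.862% for Bcl6, 1.72% for Pax5 and 5.17% for Spib, again above the plasma-lineage shares of 0.631%, 1.26% and 0.946%, but 0.862% (0.0218 to 4.71) for Bach2 against 3.15% (1.52 to 5.72). By this measure the residual Pax5 and Spib of plasma-lineage cells were not above background and are not read as expression. The Pax5 share of T cell-like cells rests on only 2 cells (0.139 to 4.07). On the non-immunoglobulin scale T cell-like Pax5 lay at 0 to 7.71 CPM. Plasma-lineage Pax5 lay at 0.596 to 12.7 CPM, above that range in some libraries and within it in others. T cell-like Spib lay at 0 to 23.1 CPM, against 1.43 to 13.8 in plasma-lineage and 1.59 to 57.3 in PC-like cells. Pou2af1 exceeded its T cell-like share with intervals apart both with that library (7.43% in T cell-like cells) and without it (10.3%). Without it, Mef2b (4.31%, 1.41 to 9.77) and Ebf1 (3.45%, 0.947 to 8.59) did so too, whereas the intervals of Irf8 (9.48%, 4.83 to 16.3) overlapped. With it, the T cell-like shares of Ebf1 (4.0%), Irf8 (8.0%) and Mef2b (2.86%) had intervals that overlapped those of plasma-lineage cells. Immunoglobulin takes part of the 2000 UMIs in a plasma cell, so shares there are also lowered by that fraction. After thinning to 1000 UMIs outside immunoglobulin genes instead, Ebf1 was seen in 8.29% (7.13 to 9.56) of plasma-lineage and 2.12% (1.02 to 3.86) of T cell-like cells of all libraries, so the intervals parted there.

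A CB-like cell carried UMIs of 3.48 ± 0.50 of the 9 genes after thinning (mean and SD over 6 libraries), an S-phase GC B-like cell 3.6 ± 0.44 and a CC-like cell 3.20 ± 0.39. Cells of the unnamed B cluster carried 3.93 ± 0.37. Recycling-like cells carried 2.69 ± 0.35, and 2.5 ± 0.10 were seen in naive or memory B-like cells. PB-like cells carried 1.21 ± 0.29 (5 libraries) and PC-like cells 0.656 ± 0.276 (4 libraries), next to 0.382 ± 0.131 in T cell-like cells. Unthinned means were 5.62 for CB-like and 2.68 for plasma-lineage cells.

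**Figure D3:**
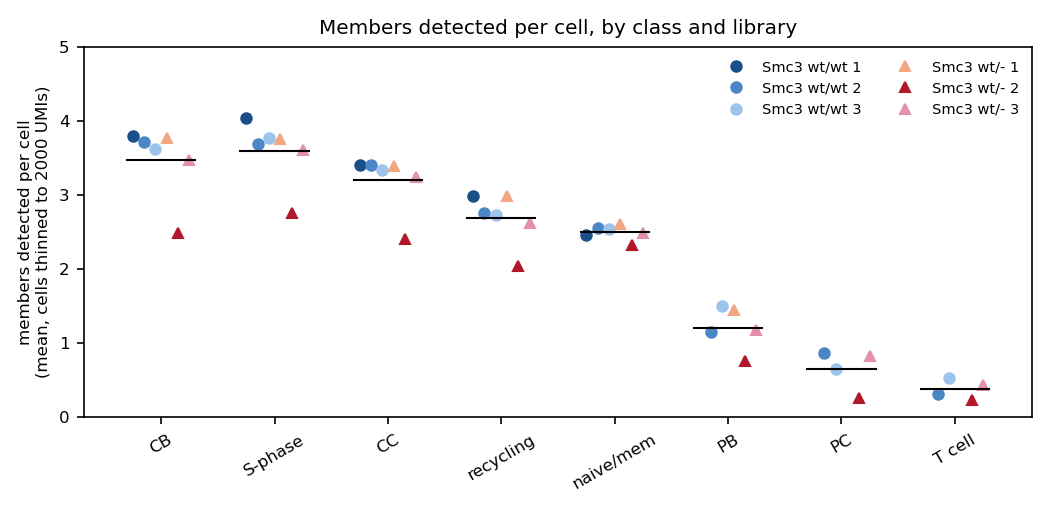
Number of the 9 genes with at least 1 UMI per cell after thinning to 2000 UMIs (vertical axis, from 0), by class (horizontal axis), with 1 point per library and a bar at the mean. CB-like libraries lie at 2.49 to 3.81 and PB-like libraries at 0.763 to 1.5.

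Cells of the plasma lineage with and without a Prdm1 UMI were compared next. In the 5 libraries other than Smc3 wt/- replicate 2, Pou2af1 was at 438 CPM in 128 cells with a Prdm1 UMI and 378 in 195 cells without, Ebf1 at 81.6 and 87.8, and Pax5 at 5.94 and 11.8. Mef2b was at 283 and 189.9 CPM. In Smc3 wt/- replicate 2, with 459 and 1286 such cells, Pou2af1 was at 369.9 and 336 CPM, Ebf1 at 66.7 and 74.9 and Mef2b at 11.3 and 10.5. In the 5 libraries the former cells were deeper (median 16204.5 against 13640 UMIs), and Prdm1 is itself seen in few cells, so absence of a UMI is not absence of the transcript.

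Other genes of the network were read in the same comparison from lists fixed by function. Of 23 other B lineage transcription factors tested, 15 were lower and 2 higher in plasma-lineage than in CB-like cells of each library (median log2 −0.95). Id3, which blocks E proteins, was at −4.38 and Bcl11a at −3.60, while Tcf4, an E protein, was at 0.43 and Klf2, a factor of quiescence and trafficking, at 2.54. Among 12 targets that Pax5 or Ebf1 activates, 9 were lower and 1 higher (median −2.12). Cr2, the complement receptor CD21, was at −4.59 and the inhibitory receptor gene Cd22 at −3.79, whereas the adaptor gene Blnk was at −0.09 and Ralgps2 at 0.39.

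Targets that Bcl6 represses went both ways, with 3 of 12 lower and 6 higher (median 1.09). Ccnd2, a G1 cyclin, was at 6.42 and Prdm1 at 5.93, and Id2 was at −1.11 and Trp53 at −0.62. Of 7 tested genes linked to Foxo1, 3 were lower and 2 higher (median −0.36), with Cxcr4, the dark zone homing receptor, at −1.48. Klf2, named above, was at 2.54 in that list too and Gadd45a at −0.36, and the second higher gene lay under the minimum of 20 CPM for naming. Of 11 partners and corepressors, 6 were lower and 1 higher (median −0.44): Pou2f2, which encodes Oct-2 and is the DNA-binding partner of Pou2af1, was at −1.93 and Mta3, a Bcl6 corepressor subunit, at −1.70, while Pou2f1 (Oct-1) was at 0.03 and Irf4 at 4.24. Of 8 plasma cell regulators, 7 were higher and 0 lower (median 4.22), with Bhlha15 (MIST1) at 8.30, Creb3l2 at 7.11 and Atf6 at 2.56, and Zbtb20 at −1.29 in the other direction. Prdm1 and Xbp1, and Cxcr4 for CB-like cells, were also markers used to name these classes. Median and shares of all tested genes were as given above, and no list was tested as a set.

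Against CB-like cells, naive or memory B-like cells had 11 of 12 Pax5 or Ebf1 targets higher and 0 lower in each library (median 1.22), and CC-like cells had 7 higher and 2 lower (median 0.33). Genes linked to Foxo1 were lower in CC-like cells for 5 of 7 tested and higher for 0 (median −0.92). Targets repressed by Bcl6 were higher for 5 of 11 in CC-like cells (median 0.63) and for 8 of 11 in naive or memory B-like cells (median 1.97). Each of these lists stood beside the shares of all genes given for the same comparison. Some of their genes, among them Cr2, Fcer2a, Cd69 and Cxcr4, were also markers used to name the classes.

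Across 46 class-by-library sums of 6 libraries, the genes closest to each member by Pearson r of log2(CPM + 10) were as follows. Mef2b was closest to Rgs13, a GC marker (r = 0.94), and Bcl6 to Cpne5 (0.95). Pax5 was closest to Ablim1 (0.98), Bach2 to Rgs2 (0.95), Ebf1 to Evl (0.98), Spib to Smim14 (0.98) and Irf8 to Sh3bp5 (0.98), with Ms4a1, which encodes CD20, next (0.98). Foxo1 had Mtss1 (0.91) and Pou2af1 had Cmpk1 (0.92) and Top1 (0.91). Among the members themselves, Ebf1 and Spib reached 0.97 and Pax5 and Spib 0.96, whereas Pou2af1 reached 0.79 with Mef2b and 0.25 with Ebf1. The sums share libraries and depth, so these values are descriptions.

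The study asked what loss of 1 copy of Smc3 does to GC B cells, and the 9 genes were compared between genotypes within each class. None of the 9 passed an adjusted p of 0.05 in any class, and neither did any other gene: edgeR called 0 of 10034 genes in CB-like, 0 of 7703 in CC-like, 0 of 7124 in naive or memory B-like and 0 of 5919 in plasma-lineage cells (0.00% in each), with 199, 130, 125 and 171 at an unadjusted p under 0.05. DESeq2 called 0 in each class, with 187, 57, 36 and 134 at an unadjusted p under 0.05.

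In CB-like cells Pou2af1 was the one member whose libraries did not overlap, at 535, 578 and 586 TMM-scaled CPM in controls against 462, 429 and 522 in Smc3 wt/- libraries (log2 fold change −0.26 ± 0.14 SE, adjusted p = 1.0, edgeR). Of all genes, 4.84% were so ordered, and 4.57% were ordered the other way, as was none of the 9. Foxo1 was at 65.2, 84.2 and 79.6 against 55.3, 53.1 and 69.5 (−0.35 ± 0.16 SE, 95% interval −0.72 to 0.02), with the groups overlapping. Bach2 (−0.50 ± 0.28 SE), Mef2b (−0.42 ± 0.44) and Bcl6 (−0.38 ± 0.27) owed much of their estimate to Smc3 wt/- replicate 2, without which they were −0.27, −0.02 and −0.20. Pax5 (−0.19 ± 0.17), Spib (−0.11 ± 0.17), Irf8 (−0.10 ± 0.13) and Ebf1 (0.06 ± 0.16) completed the list, and each adjusted p was 1.0.

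In CC-like cells the estimates ran from −0.48 for Bach2 to −0.06 for Ebf1. Without Smc3 wt/- replicate 2, whose CC-like cells held less of the GC marker Rgs13 (84.1 against 793 to 1388 CPM of all genes), Bach2 was at −0.23, Bcl6 at −0.18, Mef2b at 0.15 and Pou2af1 at 0.041. Without Smc3 wt/wt replicate 2 Pax5 was at 0.034 against −0.22. With all libraries, only the groups of Irf8 did not overlap, at 853, 812 and 774 TMM-scaled CPM in controls against 690.0, 760.3 and 739 in Smc3 wt/- libraries (−0.16 ± 0.18 SE, adjusted p = 1.0, edgeR). Of all genes, 4.18% were so ordered and 3.91% the other way. In naive or memory B-like cells 8 members had enough counts, with estimates from −0.45 for Foxo1 to 0.17 for Pou2af1 and every adjusted p at 1.0. No member was free of overlap there, where 3.43% of all genes were lower and 3.51% higher without overlap in Smc3 wt/- libraries. The intervals leave room for changes of some size: for Pou2af1 in CB-like cells the 95% interval ran from −0.59 to 0.06, and for Mef2b from −1.42 to 0.59.

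In plasma-lineage cells 5 members had enough counts, and 4 of the 5 estimates were above 0. Ebf1 was at 38.8, 43.3 and 44.5 TMM-scaled CPM in controls against 51.2, 73.4 and 75.3 in Smc3 wt/- libraries (log2 fold change 0.65 ± 0.23 SE, adjusted p = 0.889, edgeR), without overlap. Foxo1 was at 10.8, 17.9 and 23.6 against 25.2, 29.7 and 34.8 (0.70 ± 0.32 SE, adjusted p = 0.889, edgeR), also without overlap. Of all genes, 4.87% were ordered in this way and 4.58% the other way, and neither member passed the threshold. On the non-immunoglobulin scale Ebf1 again did not overlap, at 64.1 to 70.9 against 72.7 to 120.0 CPM, but Foxo1 did, at 17.8 to 37.6 against 29.4 to 55.4. Irf8 (0.30 ± 0.42), Pou2af1 (0.29 ± 0.24) and Mef2b (−0.24 ± 0.80) had wide errors, and Mef2b was 0.35 without Smc3 wt/- replicate 2. PC-like cells were 14, 24 and 28 of the 34, 68 and 76 plasma-lineage cells of the controls. In the Smc3 wt/- libraries they were 13, 1490 and 31 of 62, 1745 and 83. The part of this mix of stages in the genotype values was not tested.

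Whether the genotype difference itself differed between plasma-lineage and CB-like cells was tested as an interaction with the library as a block. No gene of 8258 passed (0.00%), with 295 at an unadjusted p under 0.05. Foxo1 had the largest difference relative to its error (log2 1.06 ± 0.27 SE, adjusted p = 0.899, edgeR), followed by Pou2af1 (0.51 ± 0.22, adjusted p = 0.899) and Ebf1 (0.57 ± 0.27, adjusted p = 0.899). Without Smc3 wt/- replicate 2 the differences were 0.96 for Foxo1, 0.32 for Pou2af1 and 0.39 for Ebf1, and that of Irf8 was 0.72 against 0.33 with it. The remaining 6 ranged from −1.15 ± 0.91 for Pax5 to 0.82 ± 0.49 for Bach2.

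**Figure D4:**
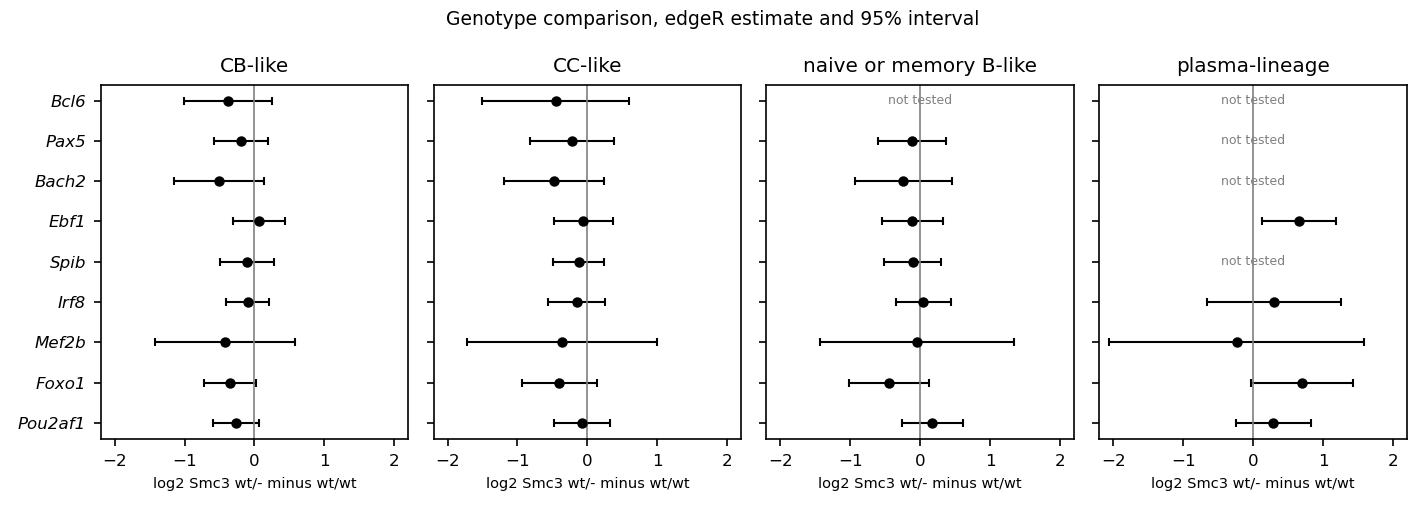
Genotype log2 fold changes (Smc3 wt/- over Smc3 wt/wt, horizontal axis) of the 9 genes with 95% intervals in CB-like, CC-like, naive or memory B-like and plasma-lineage cells. Members with too few counts are marked as not tested. All intervals include 0 apart from that of Ebf1 in plasma-lineage cells, 0.12 to 1.19, which did not pass after adjustment.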

How the data were processed

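The deposited files hold UMI counts per gene and barcode. The authors made these counts with Cell Ranger 3.0.2 (file header) from 10x 3' v2 libraries on mm10, and the submitters' processing notes also name R 4.0.2 and Seurat 4.0.0. No column of another series was present. Barcodes with at least 500 genes and at most 10% mitochondrial UMIs were kept, and the highest Scrublet scores (scanpy 1.11.5) at 0.8% per 1000 barcodes were removed as doublets (721 cells, 3.34%). Cells were clustered in Seurat 5.3.0 (RPCA integration of libraries, 30 principal components, resolution 0.5) on 1868 variable genes. The 9 genes, Smc3, Prdm1, Irf4, Xbp1, the genes of the other lists, and immunoglobulin, mitochondrial and ribosomal genes were left out of that set. Clusters were named from marker lists under a rule written after the clusters were seen. The marker lists held none of the 9, but held Prdm1, Xbp1 and some genes of the other lists. Class names were rebuilt here, so differences from the study may come from the naming.

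Raw counts were summed per library and class (at least 20 cells) and fitted in edgeR 4.0.16 (quasi-likelihood, TMM, filterByExpr, Benjamini-Hochberg adjustment, R 4.3.3), with 3 libraries per genotype. Genotype tests compared libraries within a class, and classes were compared with the library as a block. Per-library ratios used a prior count of 2. DESeq2 1.42.0, other normalizations, no low-count filter, other cell filters, sex by Y-linked transcripts, a replicate block and leaving out each library were alternatives. For the sex covariate, Smc3 wt/- replicate 2 was grouped with Smc3 wt/wt replicates 1 and 2. The test scripts were tested on simulated data. Pairing was checked by the correlation of deviations of same-numbered libraries, with nothing in the labels behind the numbers: r was 0.22, 0.11 and 0.14 in CB-like, 0.17, 0.064 and 0.14 in CC-like, 0.32, 0.23 and 0.14 in naive or memory B-like and 0.13, 0.088 and 0.19 in plasma-lineage cells. Named genes were the 9, Smc3, Prdm1, Irf4 and Xbp1. Of each list, the 2 highest and the 2 lowest plasma-lineage to CB-like ratios with at least 20 CPM in either class were named. For each of the 9 the 2 genes of highest r were found, and the second is given only for Irf8 and Pou2af1. A gene that the rule for the lists would name is not reported here. The genes, lists and tests were chosen with earlier results of these data known. Coordinates are from GENCODE M21, which shares 30934 of the 31053 identifiers. Proteins were not used here.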

Additional observations from a re-analysis of the deposited data

Results flagged for a closer look

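In 27 sets of 6 and 5 sets of 4 per-library class ratios (log2), 3 sets of 6 had a lowest library set apart from the rest by Dixon's gap criterion, where chance gives about 1 in 20. All 3 were Smc3 wt/- replicate 2. Its Mef2b ratio of plasma-lineage to CB-like cells was −2.86, against −1.37 to −0.71 in the other libraries. Its Mef2b ratio of CC-like to CB-like cells was −1.63, against −0.24 to 0.13. Its Bcl6 ratio of CC-like to CB-like cells was −4.71, against −0.81 to −0.38, and this value rests on 0 UMIs in 104 CC-like and 8 UMIs in 131 CB-like cells. Mef2b was counted there with 18 UMIs in CC-like, 102 in CB-like and 90 in plasma-lineage cells. The same library had the immunoglobulin share and the low Rgs13 described above, and their part in these ratios was not tested.

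Outside the B lineage, 57 of the 61 cells of an unnamed cluster came from Smc3 wt/- replicate 2, and Irf8 stood there at 2167 CPM on the non-immunoglobulin scale, above each B cell class of that library (335 to 656). The leading genes of the cluster included Cst3, Naaa and Xcr1. Irf8 is known as a factor of dendritic cell development too.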

How the results depend on the processing

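Of the alternatives tried, class ratios of the 9 genes kept their direction in 367 of 369, genotype differences in 481 of 496 and interaction differences in 57 of 63, and no genotype or interaction difference of a member passed an adjusted p of 0.05 in any of them (lowest 0.396 and 0.496). Against CB-like cells, the number of members lower in each library of plasma-lineage cells was 7 at resolution 1 and with the looser cell filter, and 7 to 8 when libraries were left out. It was 9 on non-immunoglobulin UMIs without TMM, an alternative chosen after seeing the data. For PC-like against PB-like cells it was 2 with doublets kept and 0 to 1 when libraries were left out (1 without Smc3 wt/- replicate 2), and clustering without integration gave no value. Without integration the CC-like to CB-like ratios of Ebf1 and Spib were −0.095 and −0.095. Members per cell were 2.23, 2.09 and 1.75 in CB-like, CC-like and naive or memory B-like cells after thinning to 1000 non-immunoglobulin UMIs. There, plasma-lineage, PB-like and PC-like cells had 0.783, 0.756 and 0.582 (0.887, 1.21 and 0.656 at 2000 UMIs). Without thinning they were 5.62, 4.79, 2.99 and, in plasma-lineage cells, 2.68, since more UMIs per cell were read.

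With no low-count filter edgeR called 4 genes between genotypes in CC-like, 39 in naive or memory B-like and 3 in plasma-lineage cells, and without integration 1 in CB-like cells. None of these was a member. The 4 were Hba-a1, Hba-a2, Ifi27 and Igha, the 3 were Dqx1, Ighv5-2 and Igkv14-111, and the 1 was Tmem121, named after their values were seen. When libraries were left out, 0 to 1 genes were called in plasma-lineage cells and 0 to 2 in the interaction, the higher counts without Smc3 wt/- replicate 2 (Ighg2c in both, and Ighm in the latter).

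Genotype log2 fold changes of members with another sign were −0.045 for Ebf1 in CB-like cells with the looser cell filter, 0.033 for Spib in CB-like cells without integration, 0.038 for Mef2b in naive or memory B-like cells with DESeq2 and −0.077 for Irf8 in plasma-lineage cells with sex as a covariate. When libraries were left out, ranges that crossed 0 were −0.065 to 0.16 for Ebf1 and −0.26 to 0.031 for Spib in CB-like cells. The CC-like ranges were −0.43 to 0.034 for Pax5, −0.83 to 0.15 for Mef2b and −0.16 to 0.041 for Pou2af1. In naive or memory B-like cells they were −0.29 to 0.010 for Pax5, −0.50 to 0.0012 for Bach2 and −0.79 to 0.51 for Mef2b, and in plasma-lineage cells −0.96 to 0.35 for Mef2b. Interaction differences ranged from −0.052 to 0.51 for Bcl6, −2.45 to 0.25 for Pax5, −1.16 to 0.14 for Spib and −0.62 to 0.33 for Mef2b. The cause was not tested.

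With the replicate number as a block, edgeR called 0 genes in each of the CB-like, CC-like, naive or memory B-like and plasma-lineage comparisons (318, 173, 217 and 241 at an unadjusted p under 0.05), so the block changed no call. Same-numbered libraries correlated above 0.1 for each of the 3 numbers in CB-like and naive or memory B-like cells only, and the labels give no reason for a pairing. Depth limits the plasma-lineage values. Bcl6, Pax5 and Spib rested there on 22, 39 and 51 UMIs over all libraries, and Smc3 wt/wt replicate 1 gave 34 plasma-lineage cells. With 3 libraries per genotype, 95% intervals reached beyond 1 log2 unit for Mef2b in each class, for Bcl6 and Bach2 in both GC classes, for Foxo1 in naive or memory B-like and plasma-lineage cells and for Ebf1 and Irf8 in plasma-lineage cells. Shares of plasma-lineage cells with a UMI without Smc3 wt/- replicate 2 were added after seeing the data.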
